A study of Mus musculus with 53 samples.

Results

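The citric acid cycle enzymes described here were 9 genes, found in the deposited expression table by their symbols: Cs, Idh2, Idh3a, Idh3b, Ogdh, Suclg1, Sucla2, Fh1 and Mdh2. All 9 listed symbols were present among the 34306 genes of the table, and all 9 passed the filter on low values that left 11654 genes for testing. A list of 9 other enzymes and subunits of the cycle, among them Idh3g, Dlst, Dld, Suclg2, Sdha, Sdhb, Sdhc and Sdhd, served as the nearest set for comparison.

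The study sequenced poly(A) RNA of adult mouse hearts in a pair of fractions. For TRAP (translating ribosome affinity purification), ribosomes carrying a tagged protein are pulled out together with their bound RNA, and input was total cytoplasmic RNA of the same kind of heart. CAG hearts carried the tag in every cell lineage, and in Tie2 hearts a Tie2-Cre switched it on in endothelial cells, per the labels of the first of 2 deposits, which also give a mixed 129/C57BL background. The 12 libraries were 2 each of CAG band TRAP, CAG band input, CAG sham TRAP and CAG sham input, and 1 each of CAG TRAP, CAG input, Tie2 TRAP and Tie2 input without surgery. Banding tied the ascending aorta of male mice against a needle, which loads the left ventricle with pressure, and the sham operation left out the ligature. The sources used here give neither the time between surgery and sampling nor the sex of the mice without surgery. RNA was pooled, and the labels do not state that a group's 2 libraries are from separate animals. P-values therefore measure the spread among these libraries alone, and that spread may be technical. Values are RPKM, which divides the reads of a gene by its length and by the depth of the library, so that levels of different genes can be compared per length.

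The citric acid cycle oxidises acetyl groups in the mitochondrial matrix and hands the electrons to NADH and to succinate dehydrogenase, from which the respiratory chain makes ATP. Heart muscle, packed with mitochondria, depends on it for contraction. Citrate synthase (Cs) joins acetyl-CoA to oxaloacetate, isocitrate is oxidised by the NAD-dependent Idh3 or the NADP-dependent Idh2, and Ogdh is the decarboxylating subunit of the 2-oxoglutarate dehydrogenase complex. Suclg1 and Sucla2 belong to succinyl-CoA synthetase, Fh1 is fumarase, and Mdh2, the mitochondrial malate dehydrogenase, regenerates oxaloacetate.

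Promoter windows were matched by symbol for 8 of the 9 genes in the RefSeq promoter table of build GRCm38.p6, as 13 windows because Ogdh has several annotated starts. Idh3a had no match. A window each is shown for 3 genes: Cs, which lay below sham in every band library of both fractions, and Suclg1 and Ogdh, which lay on opposite sides of input in sham TRAP RNA. Each runs 5′ to 3′ on the strand of the gene, from 250 bases before the annotated start to 10 bases after the start's first base. Capitals mark letters of the estrogen-related receptor element AAGGTCA, the GC box GGGCGG and CCAAT, read on either strand. The Cs window is chr10:128337477-128337736, plus strand, the Ogdh window chr11:6291920-6292179, plus strand, and the Suclg1 window chr6:73248255-73248514, plus strand.
Cs: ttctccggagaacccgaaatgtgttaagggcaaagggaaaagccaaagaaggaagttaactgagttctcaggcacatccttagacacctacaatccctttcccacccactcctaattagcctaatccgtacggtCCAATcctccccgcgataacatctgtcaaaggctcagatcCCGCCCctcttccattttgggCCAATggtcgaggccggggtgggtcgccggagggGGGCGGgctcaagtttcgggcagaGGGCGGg
Ogdh: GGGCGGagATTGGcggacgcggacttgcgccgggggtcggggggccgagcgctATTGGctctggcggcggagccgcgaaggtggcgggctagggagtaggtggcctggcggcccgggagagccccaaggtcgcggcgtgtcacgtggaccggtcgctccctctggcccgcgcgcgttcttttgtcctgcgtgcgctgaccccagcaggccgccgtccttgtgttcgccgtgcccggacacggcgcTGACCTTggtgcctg
Suclg1: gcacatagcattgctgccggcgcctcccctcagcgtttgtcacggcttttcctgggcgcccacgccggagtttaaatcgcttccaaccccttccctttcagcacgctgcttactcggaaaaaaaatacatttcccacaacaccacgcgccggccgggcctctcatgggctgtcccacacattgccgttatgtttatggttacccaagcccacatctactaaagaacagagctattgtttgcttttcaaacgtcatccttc

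In whole windows of 300 bases, 250 before the start and 50 after, AAGGTCA was found in 4.72% of all 32851 promoters of the table and in 1 of the 13 windows, the Ogdh window printed above, where it lies on the other strand and begins 5 bases before the start. GGGCGG was found in 35.7% of all promoters and in 9 of the 13 windows, from 6 of the 8 genes (Fh1, Mdh2, Idh2, Cs, Ogdh and Sucla2). CCAAT was found in 37.4% of all promoters and in 10 of the 13 windows, from 5 of the 8 genes (Fh1, Idh3b, Idh2, Cs and Ogdh). The letters TGCGCA, the core bound by NRF-1, were found in 7.76% of all promoters and in 3 of the 13 windows, from Mdh2 and Ogdh. Several of the 13 windows are of Ogdh and some of them overlap, so the windows are not separate observations. A gene with several windows also has more places for a match, so the counts of genes cannot be set against the shares of promoters. Suclg1 held none of the 4 motifs in its window. These are matches of letters and not sites of binding.

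Library totals ran from 26568988 to 94878619 reads, and the smallest member value rested on 1394 reads (Sucla2 in Tie2 TRAP) and the largest on 93975 (Mdh2 in CAG TRAP without surgery). Reads of mitochondrially encoded RNA took 0.0259% to 0.293% of the TRAP libraries, against 13.7% to 15.9% of the CAG input libraries and 3.17% of Tie2 input, so the same RPKM stands for a different share of the nuclear-encoded reads in the 2 fractions. Erythroid markers summed to 61.7 to 206 RPKM in CAG TRAP libraries, against 1412 to 2555 RPKM in CAG input libraries. The 10 cardiomyocyte markers summed to 78969 to 88279 RPKM in CAG TRAP libraries, against 66518 to 70333 RPKM in CAG input libraries. Of the marker lists, 6 of 8 fibroblast, 5 of 6 smooth muscle and pericyte, and 5 of 5 erythroid genes were called lower in TRAP than in input in both banded and sham hearts, as were 5 of 5 macrophage and leukocyte genes after banding and 4 of 5 after sham (limma, adjusted p under 0.05). Of the 10 endothelial genes 1 was called lower in each, and of the 10 cardiomyocyte genes 3 were called higher and 3 lower after banding and 2 higher and 3 lower after sham. The part of these shifts in the enzyme differences between TRAP and input was not tested. In bulk samples, fewer cells of a type and less RNA per cell cannot be told apart.

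Taken per length, Mdh2 and Idh2 were the most abundant of the 9 enzymes in every group. In CAG band TRAP RNA Mdh2 averaged 899.7 ± 17.0 RPKM and Idh2 816 ± 47.5 RPKM (SD, n = 2 each), and Fh1, the lowest, 79.3 ± 6.30 RPKM. In sham TRAP RNA Mdh2 averaged 834 ± 12.9 RPKM and Fh1 80.9 ± 0.682 RPKM (SD, n = 2 each). In the operated CAG hearts, below Mdh2 and Idh2 came Idh3b, Cs and Ogdh, then Suclg1 and Idh3a, then Sucla2 and Fh1. Idh3b stood above Cs in the means of band TRAP, band input and sham TRAP but below it in sham input, and in band input the libraries of the pair overlapped. Suclg1 and Idh3a overlapped in band TRAP, as did Sucla2 and Fh1. No neighbours in the order overlapped in sham TRAP or sham input. In Tie2 TRAP, a single library, Cs at 67.4 RPKM stood just above Idh3b at 64.0 RPKM, and Sucla2 and Fh1 shared the lowest place at 16.2 RPKM each.

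The 9 genes together took 0.658% and 0.645% of the reads in band TRAP, 0.623% and 0.597% in band input, 0.644% in each sham TRAP library and 0.656% and 0.655% in sham input. They took 0.444% of the reads of CAG TRAP without surgery, against 0.547% in the matching input, and 0.105% of Tie2 TRAP, against 0.692% of Tie2 input. The 9 genes thus held a similar share of all reads across the operated CAG groups and a far lower one in Tie2 TRAP. That total counts mitochondrially encoded reads, which took 13.7% to 15.9% of the CAG input libraries but at most 0.293% of the TRAP libraries. Similar shares of all reads in TRAP and input are therefore not similar shares of the nuclear-encoded reads.

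**Figure D1:**
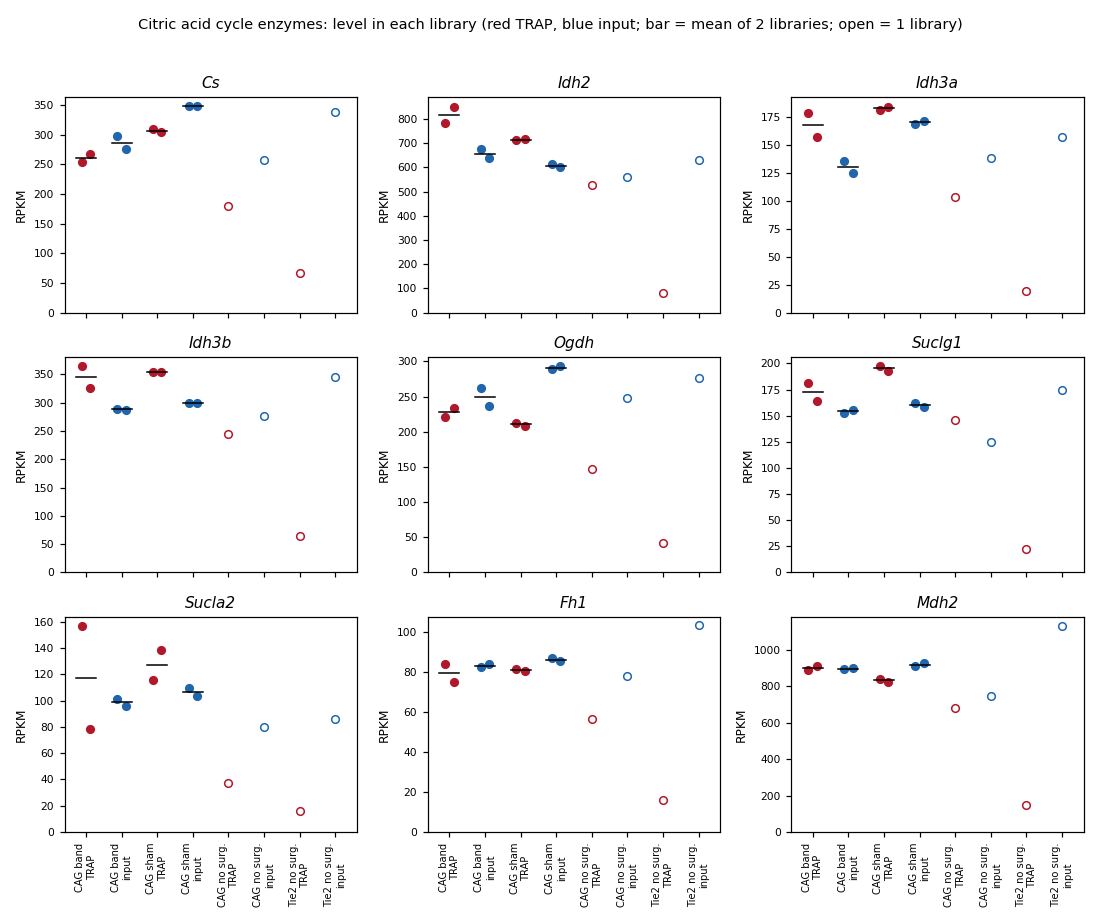
RPKM of each of the 9 enzymes (vertical axis, starting at 0) in the 12 libraries, grouped by line, surgery and fraction; filled points are the 2 libraries of a group with their mean as a bar, and open points are single libraries. Tie2 TRAP is the lowest library for every gene, and the 2 band TRAP libraries of Sucla2 stand apart at 157 and 78.3 RPKM.

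TRAP RNA was first set against input RNA in CAG hearts, which asks how the transcripts bound to tagged ribosomes compare with the cytoplasmic pool. In banded hearts Idh2, Idh3a and Idh3b were called higher in TRAP RNA, at 1.20- to 1.29-fold. Idh2 and Idh3b were also higher in sham hearts, at 1.18-fold each, and narrowly missed the threshold there. In sham hearts Suclg1 rose 1.22-fold and Ogdh fell to 0.724 of its input level. Cs was lower in TRAP than in input in both kinds of heart without passing the test, and Mdh2 and Fh1 differed from input by at most 0.14 on the log2 scale without passing it.

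After banding, 3 of the 9 genes were called higher in TRAP, against 16.6% of all genes tested, and 0 were called lower, against 26.0% (limma, Benjamini-Hochberg adjusted p under 0.05). Their median log2 fold change was 0.16, beside -0.10 over all genes tested. After the sham operation 1 of 9 was called higher, against 15.1% of all genes, and 1 lower, against 24.5%. The median there was 0.10, beside -0.09 over all genes. These shares and medians over all genes depend on the filter. A filter of 5 RPKM left 6511 genes, of which 1724 were called higher and 1560 lower after banding. After sham 1641 were called higher and 1468 lower. The median over these 6511 genes was 0.02 after banding and 0.05 after sham, while that of the 9 enzymes stayed at 0.16 and 0.10.

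Citrate synthase was measured at 254 and 268 RPKM in band TRAP, against 297 and 275 RPKM in band input. In sham hearts it was at 309 and 304 RPKM in TRAP, against 349 RPKM in each input library. TRAP libraries were below input libraries in both kinds of heart, without overlap. The log2 fold change was -0.13 ± 0.08 (SE, limma) after banding with an adjusted p of 0.208, and -0.19 ± 0.08 after sham with an adjusted p of 0.0988.

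Idh2, which makes mitochondrial NADPH, was measured at 783 and 850.1 RPKM in band TRAP, against 674 and 639 RPKM in band input. Both TRAP libraries stood above both input libraries, and limma gave a log2 fold change of 0.31 ± 0.08 (SE) with an adjusted p of 0.0185. In sham hearts Idh2 had 711 and 717 RPKM in TRAP, against 612 and 600.5 RPKM in input. The groups did not overlap there either, but the log2 fold change of 0.24 ± 0.08 missed the threshold with an adjusted p of 0.0520.

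Idh3a, the catalytic subunit of the NAD-dependent enzyme, had 179 and 157 RPKM in band TRAP, against 135 and 125 RPKM in band input. The gap was the widest of the called enzymes after banding, at a log2 fold change of 0.37 ± 0.09 (SE, limma adjusted p = 0.0175). In sham hearts Idh3a had 181 and 184 RPKM in TRAP, against 169 and 172 RPKM in input, a difference of 0.10 ± 0.09 (adjusted p = 0.410). Its partner Idh3b, a regulatory subunit, had 366 and 326 RPKM in band TRAP, against 289 and 287 RPKM in band input, and was called at 0.26 ± 0.08 (adjusted p = 0.0391). In sham hearts Idh3b had 353 and 354 RPKM in TRAP, against 300.1 and 299.9 RPKM in input. That difference of 0.24 ± 0.08 was nearly as large and missed the threshold (adjusted p = 0.0556). The third subunit, Idh3g, was not called in either kind of heart, with log2 fold changes of 0.16 after banding and 0.21 after sham.

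Ogdh lay on the other side of input. It had 213 and 209 RPKM in sham TRAP, against 289 and 294 RPKM in sham input, the widest gap of any of the 9 enzymes in the operated hearts. The sham log2 fold change was -0.47 ± 0.08 (SE, limma adjusted p = 0.00568). In banded hearts Ogdh had 221 and 234 RPKM in TRAP, against 262 and 236 RPKM in input, which did not overlap but differed by only -0.13 ± 0.08 (adjusted p = 0.249). Its relative Ogdhl, another 2-oxoglutarate dehydrogenase-like gene, also fell in sham TRAP, to 27.5 RPKM against 34.9 RPKM in sham input on average (log2 fold change -0.33, adjusted p = 0.0293). Dlst, the second subunit of the complex, was at 144 and 141 RPKM in sham TRAP, against 162 and 160.1 RPKM in sham input, and was not called (adjusted p = 0.0922).

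Suclg1, the alpha subunit shared by both forms of succinyl-CoA synthetase, had 197 and 193 RPKM in sham TRAP, against 163 and 159 RPKM in sham input, and rose by 0.28 ± 0.08 on the log2 scale (SE, limma adjusted p = 0.0301). After banding it had 181 and 164 RPKM in TRAP, against 153 and 156 RPKM in input. The groups did not overlap, and the difference of 0.16 ± 0.08 was not called (adjusted p = 0.151). Sucla2, the beta subunit of the ADP-forming enzyme, had 157 and 78.3 RPKM in band TRAP, against 102 and 96.1 RPKM in band input, so that its TRAP libraries lay on either side of input. In sham hearts Sucla2 had 116 and 139 RPKM in TRAP, against 109 and 103 RPKM in input, and its log2 fold change of 0.25 ± 0.28 was not called (adjusted p = 0.515).

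Fh1 had 83.8 and 74.8 RPKM in band TRAP, against 82.4 and 83.8 RPKM in band input. Mdh2 had 888 and 912 RPKM in band TRAP, against 896 and 899 RPKM in band input. Both genes overlapped between the fractions, and their log2 fold changes were -0.07 ± 0.08 for Fh1 and 0.0037 ± 0.0714 for Mdh2. In sham hearts both were below input in every library. Fh1 had 81.4 and 80.4 RPKM in sham TRAP, against 86.9 and 85.2 RPKM in sham input, and Mdh2 843 and 825 RPKM in sham TRAP, against 913 and 927 RPKM in sham input. Neither was called (limma adjusted p = 0.430 for Fh1 and 0.156 for Mdh2).

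Counted without a test, 4 of the 9 enzymes had every band TRAP library above every band input library (Idh2, Idh3a, Idh3b and Suclg1), against 27.5% of all genes, and 2 had every library below (Cs and Ogdh), against 41.6%. In sham hearts 5 lay above, against 32.2% of all genes, and 4 below, against 46.9%. On the RPKM scale Idh2, Idh3a, Idh3b and Suclg1 lay above input and Cs and Ogdh below it in both kinds of heart. Lack of overlap was common among all genes, so these counts are a description. The side of input also depended on the scale. With quantile normalization Idh3a and Idh3b in sham hearts and Suclg1 in banded hearts lay below input. In the pair without surgery Idh2, Idh3a and Idh3b lay below input.

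**Figure D2:**
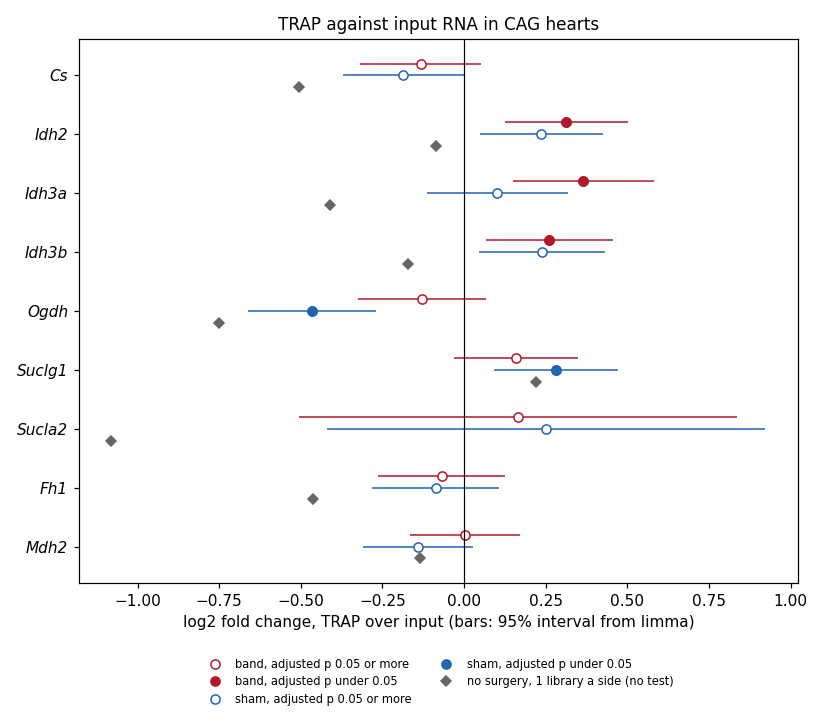
Log2 fold change of TRAP over input (horizontal axis) for each enzyme in banded and sham CAG hearts, with 95% intervals from limma; filled circles have an adjusted p under 0.05, and grey diamonds are the untested single pair without surgery. Idh2, Idh3a and Idh3b were called after banding and Suclg1 and Ogdh after sham, and the diamonds lie left of both circles for 7 of the 9 genes.

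The calls depended on single libraries and on the scale. After banding, the median log2 fold change of the 9 was 0.13 without the second band input library and 0.15 without the first. Over all genes it was -0.13 and -0.07 in these fits. Without the first band TRAP library it was 0.02 for the 9 and -0.14 over all genes. Without the second it was 0.23 for the 9 and -0.05 over all genes. In each such fit the lone library left in a group is assumed to vary like the other groups. The sham call of Suclg1 was lost when any of the 4 libraries was left out (limma adjusted p = 0.116 to 0.149), and that of Ogdh was kept each time (0.0413 to 0.0469). With a filter of 5 RPKM, or with limma voom on the recovered reads, Idh2 and Idh3b were also called higher after sham. Over all genes the filter called 1641 of 6511 higher there and voom 1708 of 11654, against 1763 of 11654 in the fit reported. Quantile normalization, which moved the median of all genes by 0.15 (log2) after banding and by 0.14 after sham, left Idh2 alone of the 9 called higher after banding and placed Cs and Ogdh among the genes called lower in both kinds of heart. A total without abundant genes left out the 50 most abundant genes and all mitochondrially encoded and globin genes, 90 in all. It therefore does not count the mitochondrially encoded reads that are scarce in TRAP. It moved the median of all genes by -0.13 and -0.12. With it 0 of the 9 were called higher in either kind of heart, and Cs and Ogdh were again called lower in both. Over all genes these scalings also moved the balance of calls after banding, to 2544 higher and 1955 lower with quantile normalization and to 1336 higher and 4130 lower with the other total, beside 1938 higher and 3026 lower in the fit reported. After sham they gave 2053 and 1181 higher and 1851 and 3918 lower, beside 1763 higher and 2852 lower. Under both, Idh3a in sham hearts and Mdh2 in banded hearts lay below input, and under quantile normalization so did Idh3b in sham hearts and Suclg1 in banded hearts. The median of the 9 enzymes after banding was -0.05 with quantile normalization and 0.0063 with the other total. The low position of Ogdh in sham TRAP kept its call under both (adjusted p = 0.00176 and 0.00195). The call was lost once the trend over transcript length was removed (-0.25, adjusted p = 0.112; over all genes that fit called 2062 higher and 2037 lower after banding and 1568 and 1705 after sham), and the Ogdh transcript is the longest of the 9 at 4168 bases. Across the 9 enzymes the log2 fold change and the log2 of length had r = -0.47 after banding and -0.49 after sham, against -0.07 and -0.16 across the 11654 genes tested; these points share libraries and are given as a description.

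Ratios between 2 members within 1 library do not depend on the library's total. Idh2 over Cs was 3.08 and 3.17 in band TRAP, against 2.27 and 2.32 in band input. It was 2.30 and 2.36 in sham TRAP, against 1.76 and 1.72 in sham input, and 2.91 in CAG TRAP without surgery, against 2.17 in its input. The ratio was therefore higher in TRAP than in input in each of these 3 settings, and higher in band than in sham libraries of the same fraction. Suclg1 over Ogdh was 0.819 and 0.700 in band TRAP, against 0.583 and 0.658 in band input, and 0.927 and 0.926 in sham TRAP, against 0.563 and 0.540 in sham input. Without surgery it was 0.993 in CAG TRAP, against 0.505 in CAG input. Again each TRAP library exceeded the input libraries of its setting. Idh3a over Idh3b, subunits of 1 enzyme, was 0.490 and 0.482 in band TRAP, against 0.468 and 0.435 in band input, and 0.513 and 0.521 in sham TRAP, against 0.563 and 0.573 in sham input. The pairs of genes were chosen with their values known, and the ratios were not tested.

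**Figure D3:**
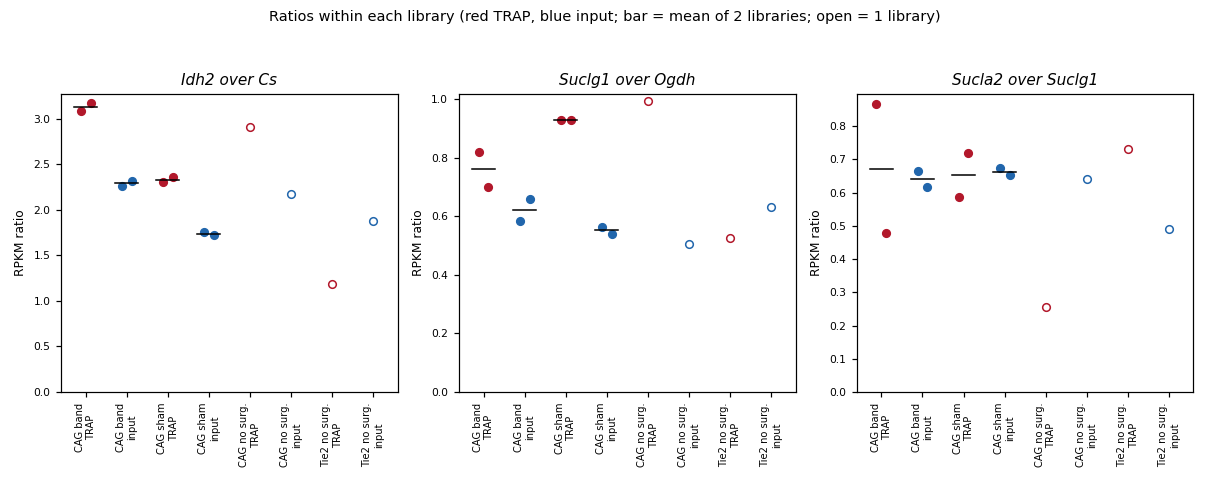
Ratio of RPKM between 2 enzymes within each library (vertical axis, starting at 0) for Idh2 over Cs, Suclg1 over Ogdh and Sucla2 over Suclg1; filled points are the 2 libraries of a group with their mean as a bar, and open points are single libraries. Idh2 over Cs is highest in band TRAP at 3.08 and 3.17, and Sucla2 over Suclg1 is lowest in CAG TRAP without surgery at 0.256.

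Banding was next set against sham, the comparison that asks what pressure load changes. Of the 9 enzymes, 0 passed the test in either fraction, so that no difference with banding was called for these genes. Cs was lower in every band library of both fractions, at 0.852 of sham in TRAP RNA and 0.821 of sham in input RNA on the fitted scale. Idh3a was likewise lower and Idh2 higher in every band library of both fractions, none past the correction.

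In TRAP RNA 0 of the 9 enzymes were called higher with banding, against 2.21% of all genes tested, and 0 lower, against 1.56%. In input RNA 0 were called higher, against 2.44%, and 0 lower, against 1.65% (limma, adjusted p under 0.05). At an unadjusted p under 0.05, limma gave 2 of the 9 in TRAP (Cs and Idh2), against 19.7% of all genes, and 3 in input (Cs, Idh3a and Ogdh), against 19.3%. limma voom on the recovered reads likewise called 0 in either fraction. The median log2 fold change of the 9 was -0.04 in TRAP and -0.06 in input, beside -0.01 over all genes in each.

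Cs was measured at 254 and 268 RPKM in band TRAP, against 309 and 304 RPKM in sham TRAP, a log2 fold change of -0.23 (95% interval -0.42 to -0.05) with a limma adjusted p of 0.165. In input it was at 297 and 275 RPKM after banding, against 349 RPKM in each library after sham, a difference of -0.28 (-0.47 to -0.10) with an adjusted p of 0.107. Band and sham libraries did not overlap in either fraction. Across the alternatives tried in which both libraries of each group stayed in, Cs was called in neither fraction. Without the second band TRAP library the value in TRAP rests on the 254 RPKM of the first, and no call is given.

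Idh3a in input was at 135 and 125 RPKM after banding, against 169 and 172 RPKM after sham, the largest difference of the 9 at -0.39 (95% interval -0.60 to -0.17, limma adjusted p = 0.0695). Removing the trend over length or using a total without abundant genes brought it under the threshold (adjusted p = 0.0445 and 0.0458). In TRAP Idh3a was at 179 and 157 RPKM after banding, against 181 and 184 RPKM after sham, and the difference was -0.12 (-0.34 to 0.09). Idh2 was at 783 and 850.1 RPKM in band TRAP, against 711 and 717 RPKM in sham TRAP, a difference of 0.19 (0.0033 to 0.38, adjusted p = 0.244). Idh3b differed by less than these genes, at -0.04 (-0.23 to 0.16) in TRAP and -0.06 (-0.25 to 0.14) in input.

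Ogdh stood on opposite sides of sham in the 2 fractions. In TRAP it had 221 and 234 RPKM after banding, against 213 and 209 RPKM after sham, a log2 fold change of 0.11 (95% interval -0.09 to 0.31). In input it had 262 and 236 RPKM after banding, against 289 and 294 RPKM after sham, a difference of -0.23 (-0.42 to -0.03, limma adjusted p = 0.195). The TRAP difference minus the input difference, which is how far the TRAP to input ratio differed between banded and sham hearts, was 0.34 ± 0.12 (SE) at an unadjusted p of 0.0240 and an adjusted p of 0.962. That test called 0 of the 9 enzymes, against 0.0% of all genes, and 4.78% of all genes had an unadjusted p under 0.05, Ogdh alone among the 9. limma voom also called 0 of the 9.

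For succinyl-CoA synthetase, Suclg1 had 181 and 164 RPKM in band TRAP, against 197 and 193 RPKM in sham TRAP, without overlap and without a call (-0.18, 95% interval -0.37 to 0.01, limma adjusted p = 0.278). Without the first band TRAP library, the difference between band and sham TRAP was -0.25 for Suclg1 and -0.69 for Sucla2. That fit leaves 1 band TRAP library, from the pair that differed most over all genes (median absolute log2 difference 0.204). In input the difference of Suclg1 was -0.06 (-0.25 to 0.13). Sucla2 overlapped in TRAP, with a difference of -0.19 and an interval from -0.86 to 0.48 that spans both directions. The fitted difference of Fh1 was -0.03 (-0.23 to 0.16) in TRAP and that of Mdh2 was 0.11 (-0.06 to 0.28), and in input it was -0.05 (-0.24 to 0.15) for Fh1 and -0.04 (-0.20 to 0.13) for Mdh2.

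Without overlap between band and sham libraries, 8 of the 9 enzymes were lower in banded input, against 31.1% of all genes, and 1 (Idh2) was higher, against 28.7%. In TRAP 3 were lower (Cs, Idh3a and Suclg1), against 22.4% of all genes, and 3 higher (Idh2, Ogdh and Mdh2), against 21.9%. The 8 genes below sham in input share the same 4 libraries, so they are not 8 separate observations. Of the other 9 cycle enzymes, 0 were called in either fraction; 7 of 9 had a log2 fold change below 0 in input, with a median of -0.11, and 6 of 9 in TRAP, with a median of -0.01. Erythroid markers were lower in all band libraries, summing to 61.7 and 109 RPKM in band TRAP, against 204 and 206 RPKM in sham TRAP, and 1535 and 1938 RPKM in band input, against 2555 and 2486 RPKM in sham input. Macrophage and leukocyte markers summed to 164 and 151 RPKM in band input, against 123 and 125 RPKM in sham input. In TRAP they summed to 72.7 and 63.1 RPKM after banding, against 61.9 and 62.4 RPKM after sham. Cardiomyocyte markers summed to 70333 and 69812 RPKM in band input, against 66673 and 66518 RPKM in sham input. Of these 10 genes, 6 had a log2 fold change above 0 in input and 2 in TRAP, and 1 was called higher in each fraction. Endothelial markers had log2 fold changes below 0 for 10 of 10 genes in both fractions, 0 of them called. The part of these shifts in the enzyme values was not tested.

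**Figure D4:**
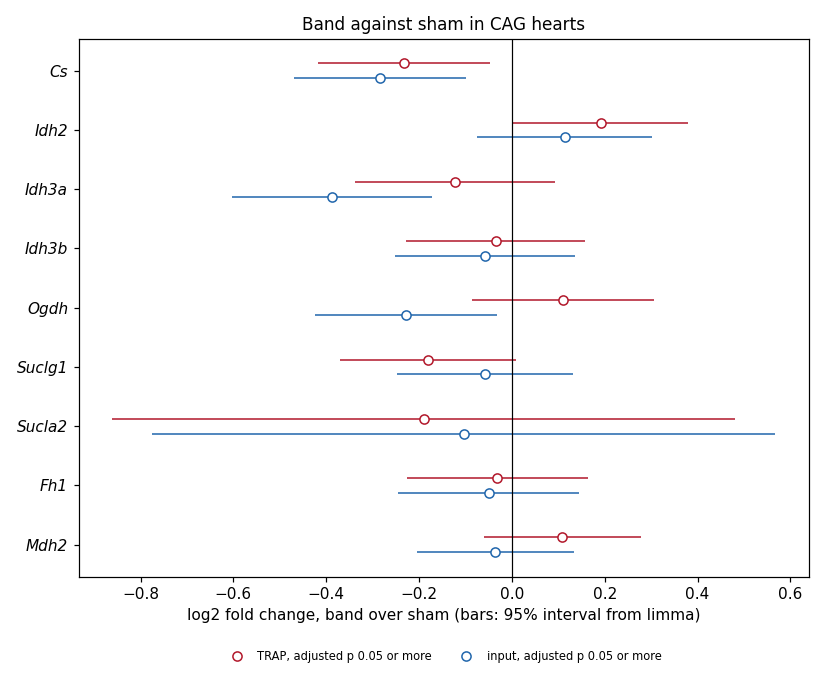
Log2 fold change of band over sham (horizontal axis) for each enzyme in TRAP and input RNA of CAG hearts, with 95% intervals from limma; all circles are open because no difference had an adjusted p under 0.05. Cs lies below 0 in both fractions, at -0.23 in TRAP and -0.28 in input, and the intervals of Sucla2 are the widest.

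Sucla2 varied far more between libraries of 1 group than the rest. On the log2(RPKM + 1) scale, from which all folds between libraries of a group are given here, its band TRAP libraries differed 1.99-fold, a gap reached by 3.22% of all genes tested in that group, while the other 8 enzymes differed at most 1.14-fold there. The sham TRAP libraries of Sucla2 differed 1.20-fold, those of band input 1.06-fold and those of sham input 1.06-fold, so the wide gap was seen in TRAP RNA after banding. Within the same pair of band TRAP libraries Dld, the dihydrolipoamide dehydrogenase shared by the 2-oxoglutarate and pyruvate dehydrogenase complexes, had 76.3 and 28.5 RPKM, a 2.62-fold gap reached by 1.34% of genes. Suclg2, the beta subunit of the GTP-forming synthetase, had 19.2 and 11.5 RPKM, a 1.62-fold gap reached by 8.13% of genes. Sucla2 over Suclg2 was 8.15 and 6.80 in these libraries, against 6.17 and 6.77 in band input. The band TRAP pair was also the widest over all genes, with a median absolute log2 difference of 0.204, against 0.109 in band input, 0.0959 in sham TRAP and 0.0809 in sham input. Leaving out the first band TRAP library gave a TRAP against input difference of -0.33 for Sucla2 after banding, against 0.16 with both. This value therefore rests on which library is kept. Only 1 band TRAP library is left in that fit, with no spread of its own.

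CAG hearts without surgery gave 1 library a side, so these ratios have no replicate check. Here 8 of the 9 enzymes were lower in TRAP than in input, as were 7977 of the 11654 genes tested. Sucla2 had 37.3 RPKM in TRAP, against 79.9 RPKM in input, a ratio of 0.466 (exact 95% binomial interval 0.450 to 0.484, counting error only) and the only one past 2-fold, which 7.53% of all genes passed downward and 0.961% upward. Ogdh followed with 147 RPKM in TRAP RNA, against 248 RPKM in input RNA, a ratio of 0.593 (0.584 to 0.601). Cs stood at 181 RPKM in the TRAP library, against 257 RPKM in input, a ratio of 0.703. The ratio was 0.723 for Fh1 and 0.750 for Idh3a. Idh3b, Mdh2 and Idh2 were closer to input, at ratios of 0.887, 0.911 and 0.942. Suclg1 was the exception with 146 RPKM in TRAP, against 125 RPKM in input, a ratio of 1.17 (1.14 to 1.19). The median log2 ratio of the 9 was -0.41, beside -0.26 over all genes tested. Ogdh was thus low and Suclg1 high within the set in the unoperated pair as in the sham pairs.

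Tie2 TRAP RNA, from ribosomes tagged in endothelial cells, held the least citric acid cycle transcript of all 12 libraries. All 9 enzymes were 5.01- to 8.13-fold lower in Tie2 TRAP than in Tie2 input, and 9 of 9 were past 2-fold, against 13.1% of all genes tested, while 0 were past 2-fold higher, against 31.5%. The median log2 ratio of the 9 was -2.69, beside 0.48 over all genes. Again each side is 1 library and there is no test.

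Mdh2 had 150.4 RPKM in Tie2 TRAP, against 1133 RPKM in Tie2 input, a ratio of 0.133 (exact 95% binomial interval 0.130 to 0.136, counting error only). Idh2 had 79.8 RPKM in Tie2 TRAP, against 632 RPKM in input (ratio 0.126, 0.123 to 0.130), and Idh3a 19.4 RPKM, against 158 RPKM (0.123, 0.117 to 0.129), which was the lowest ratio. Suclg1 had 22.1 RPKM in Tie2 TRAP, against 174 RPKM in input (0.127). The ratio was highest for Cs, with 67.4 RPKM in Tie2 TRAP, against 337 RPKM in input (0.200, 0.195 to 0.205). Next came Sucla2, with 16.2 RPKM in Tie2 TRAP, against 85.7 RPKM in input (0.189), and Idh3b, with 64.0 RPKM, against 346 RPKM (0.185). Fh1 was at 16.2 RPKM in Tie2 TRAP, against 103 RPKM in input (0.157), and Ogdh at 42.1 RPKM, against 276 RPKM (0.152). The counting intervals of Cs and Idh3a are far apart, so the makeup of the set differed between these 2 libraries beyond counting error. Idh2 over Cs was 1.18 in Tie2 TRAP, against 1.87 in Tie2 input, the lowest value of any library.

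The labelled cell type was checked against its markers. The 10 endothelial markers were all past 2-fold higher in Tie2 TRAP, with a median log2 ratio of 3.52 and sums of 2147 RPKM in Tie2 TRAP, against 189 RPKM in input. The 10 cardiomyocyte markers were all past 2-fold lower, with a median log2 ratio of -3.95, and their sum was 4128 RPKM in Tie2 TRAP, against 87583 RPKM in input, so cardiomyocyte RNA was not absent. The 5 macrophage and leukocyte markers tested were higher too, with sums of 959 RPKM in Tie2 TRAP, against 109.9 RPKM in input, and 8 of 8 fibroblast markers had a log2 ratio above 0, with sums of 614 RPKM, against 237 RPKM. The cardiomyocyte markers ranged from -5.51 to -1.69 on the log2 scale, and the 9 enzymes from -2.97 to -2.31, with a median of -2.69. Myh6, Tnnt2, Tnni3, Actc1, Myl2, Myl3 and Mb, at -3.73 or lower, lay below every enzyme. Ryr2, Pln and Ttn were at -2.72, -2.23 and -1.69. The Ttn value rests on 0.578 RPKM in Tie2 TRAP, against 4.10 RPKM in input, a low level at which the added 1 RPKM shrinks the ratio. The part of remaining cardiomyocyte RNA in the levels of the enzymes in Tie2 TRAP was not tested.

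The other 9 cycle enzymes were also lower in Tie2 TRAP, 9 of 9 past 2-fold, with a median log2 ratio of -2.25. Suclg2 was the nearest to input of the 9, at -1.18. Of the genes that feed pyruvate into the cycle, 10 of the 13 tested were past 2-fold lower and 0 higher. Among 14 cytosolic partners and shuttles 8 were past 2-fold lower, against 13.1% of all genes, and 2 past 2-fold higher, against 31.5%. Mdh1, Got1 and Got2, enzymes of the malate-aspartate shuttle, were lower, at log2 ratios of -3.52, -3.41 and -3.23. Slc25a1, the mitochondrial citrate carrier, and Acly, the cytosolic enzyme that splits citrate, were past 2-fold higher, at 1.45 and 1.29. Idh1, the cytosolic relative of Idh2, had 9.47 RPKM in Tie2 TRAP, against 7.66 RPKM in Tie2 input, so that Idh2 over Idh1 was 8.43 in Tie2 TRAP, against 82.5 in Tie2 input.

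Against CAG TRAP without surgery, a comparison of ribosome-bound RNA on both sides, 9 of 9 enzymes were more than 2-fold lower in Tie2 TRAP, against 11.3% of all genes, and 0 were higher, against 44.4%, with a median log2 ratio of -1.92 beside 0.85 over all genes. Idh2 and Suclg1 were lowest, 6.59-fold lower each, and Sucla2 nearest, 2.31-fold lower, with 16.2 RPKM in Tie2 TRAP, against 37.3 RPKM in CAG TRAP. The low Sucla2 level of the CAG TRAP library without surgery enters that ratio. Erythroid markers summed to 611 RPKM in Tie2 TRAP, against 114 RPKM in CAG TRAP.

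**Figure D5:**
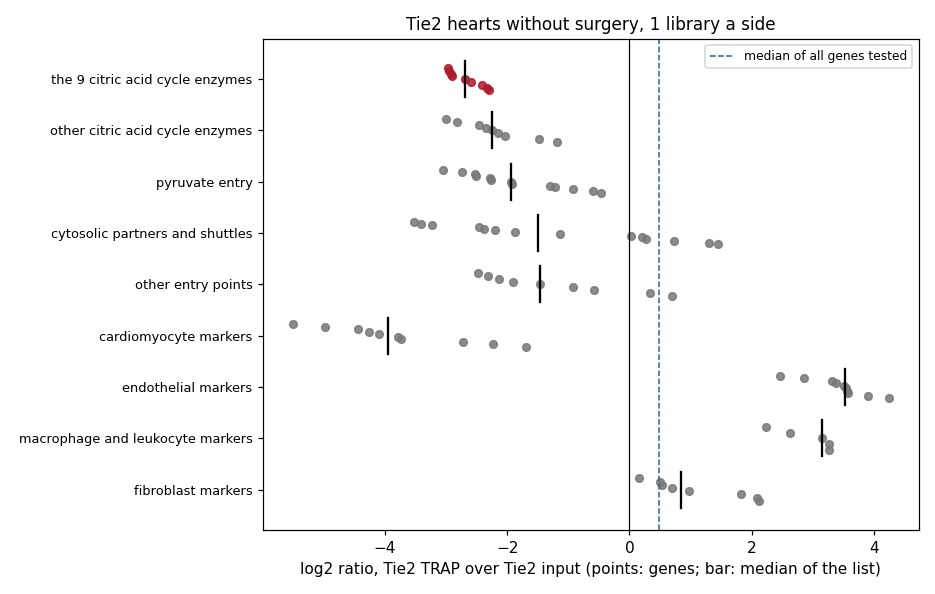
Log2 ratio of Tie2 TRAP over Tie2 input (horizontal axis) for the genes of each list, 1 library a side and untested; points are genes, black bars the median of a list, and the dashed line the median of all genes tested at 0.48. All 9 citric acid cycle enzymes lie between -2.97 and -2.31, with a median of -2.69. The cardiomyocyte markers have a median of -3.95 and range from -5.51 to -1.69, and all but Ryr2, Pln and Ttn lie below every enzyme. The endothelial markers have a median of 3.52.

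Of the other 9 cycle enzymes, 2 were called higher in TRAP than in input after banding, against 16.6% of all genes, and 3 after sham, against 15.1%. Of the same 9, 0 were called lower, against 26.0% after banding and 24.5% after sham. All were succinate dehydrogenase subunits, which pass electrons from succinate to the respiratory chain. Sdhb had 1409 and 1702 RPKM in band TRAP, against 1040.0 and 1050.2 RPKM in band input, and rose by 0.57 on the log2 scale (limma adjusted p = 0.00494). Sdhd had 305 and 233 RPKM in band TRAP, against 169.6 and 171 RPKM in band input, a log2 fold change of 0.64 (adjusted p = 0.00815). In sham hearts Sdhb, Sdhc and Sdhd rose by 0.57, 0.38 and 0.70 (adjusted p = 0.00542, 0.0155 and 0.00656). Of the 13 pyruvate entry genes tested, 3 were called higher and 1 lower after banding, and 3 higher and 0 lower after sham. Brp44l and Brp44, the symbols in the table for the mitochondrial pyruvate carrier genes Mpc1 and Mpc2, rose by 1.21 and 1.08 after banding and by 0.85 and 0.88 after sham. Dlat, the acetyltransferase subunit of the pyruvate dehydrogenase complex, rose by 0.57 after banding and 0.41 after sham, and Pdp2, which activates that complex, fell by 0.48 after banding. Of 14 cytosolic partners and shuttles, 2 were called higher and 4 lower after banding and 2 higher and 3 lower after sham. Slc25a11, the oxoglutarate carrier, rose by 0.55 and 0.54 and Me3, a malic enzyme, by 0.46 and 0.37 in banded and in sham hearts. After banding Slc25a1 and Slc25a10, the citrate and dicarboxylate carriers, fell by 0.49 and 0.45, and after sham Aco1 and Me1, cytosolic aconitase and malic enzyme, fell by 0.35 and 0.34. Of 9 genes of other entry points 1 was called higher and 1 lower in both kinds of heart: Mcee, methylmalonyl-CoA epimerase, rose by 1.05 after banding and 0.82 after sham, and Glud1, glutamate dehydrogenase, fell by 0.52 after banding and 0.42 after sham. Of these pathway lists 0 genes were called between band and sham in either fraction by limma.

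Over all 12 libraries the genes whose log2(RPKM + 1) followed the mean of the 9 enzymes most closely included Slc8a1, Pdhx, Uqcrc1, Got1, Coro6, Pfkm, Frmd5, Acaa2 and Ndufv1, with Pearson's r from 0.995 to 0.989. Tie2 TRAP is 1 of the 12 points and far below the rest. Among the 36 pairs of the 9 enzymes r ran from 0.853 to 0.991. Over the 10 CAG libraries alone the nearest genes were Hadhb, Slc25a12, Iars2, Aifm1, Sdha, Lias, Ednra, Dnaja2, Uchl5 and Foxj2, with r from 0.980 to 0.961. There the 36 pairs of enzymes had a median r of 0.637, from -0.09 for Ogdh with Suclg1 to 0.886 for Idh3a with Idh3b. No gene was among the 10 nearest in both sets of libraries. These values describe 12 or 10 libraries that share groups and scaling.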

How the data were processed

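The deposited values were RPKM per transcript, made by the authors and pooled into 1 table with 12 library columns and no column of other samples. Per the submitters' processing notes, CASAVA 1.8.2, TopHat 1.4 and HTSeq 0.5.3 were used with build NCBIM37; settings and annotation are not given in the sources used here. Per the labels' protocols, libraries were made from poly(A) RNA with random hexamers and do not mark strand. Overlapping genes on opposite strands therefore cannot be told apart. RPKM times length gave whole reads for 233410 of 233410 positive values (tolerance 0.02), which gave the depths and the counting intervals. Those intervals cover counting error only.

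Columns were matched to the later of 2 deposits by name (24 of 53 samples). Apart from shared replicate numbers, the libraries of TRAP and input carry no label that pairs them. log2(RPKM + 1) was fitted by limma 3.58.1 under R 4.3.3 (two-sided moderated test, mean trend) over all 12 libraries, for genes with at least 1 RPKM in at least 2 libraries. P-values were adjusted by Benjamini-Hochberg over 11654 genes, with calls made below 0.05. A fold change on this scale understates that of low genes. Single libraries were compared as ratios with exact 95% binomial intervals and no test, and called past 2-fold. Named genes were the 9 members, at most 4 genes of each pathway list with the largest absolute difference among those called, and the 10 genes most like the members' mean. Idh3g, Dlst, Dld and Suclg2, and for Tie2 hearts Idh1, Slc25a1 and Acly, fall outside that rule and were chosen after their values were seen. The members and lists were chosen with earlier results of these data known. Alternatives were another pseudocount (0.1), a 5 RPKM filter, no filter, quantile normalization, a total without abundant genes (90 left out), removal of the length trend, a replicate block, the 8 operated libraries alone, limma voom on recovered reads, and each replicate left out. The 90 genes left out were the 50 most abundant with all mitochondrially encoded and globin genes. The fit was also run on simulated data with the same spread in all groups and 2-fold changes. That setting does not bear on the smaller differences reported here or on the wider band TRAP pair. Cardiomyocyte-specific TRAP samples were not analysed here. Values of 1 gene that the rule would name are not reported here.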

Additional observations from a re-analysis of the deposited data

Results flagged for a closer look

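For 3 of the 9 enzymes TRAP lay above input in every operated library and below it in the pair of CAG libraries without surgery, and the difference was not tested. Idh2, Idh3a and Idh3b were higher in TRAP than in input in every band library and in every sham library, with fitted log2 fold changes of 0.31, 0.37 and 0.26 after banding and 0.24, 0.10 and 0.24 after sham. Without surgery their log2 ratios were -0.0859 for Idh2, -0.41 for Idh3a and -0.17 for Idh3b. Sucla2 was higher in TRAP in every sham library, at 0.25, and had a log2 ratio of -1.08 without surgery, a difference that was not tested either. Its band TRAP libraries lay on both sides of input. The median over all genes was -0.26 without surgery, against -0.10 after banding and -0.09 after sham. Each part of this pattern was common. Every TRAP library lay above input for 27.5% of all genes after banding and for 32.2% after sham. Without surgery 7977 of 11654 genes were lower in TRAP. The share of all genes with the whole pattern was not counted, so the 3 enzymes cannot be set against it. The unoperated side is 1 library a fraction, its TRAP library is the deepest of the 12 at 94878619 reads, and depth, sex and surgery cannot be told apart in it.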

How the results depend on the processing

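Counts of the 9 enzymes called in TRAP against input moved with the processing. After banding 3 were called higher and 0 lower. Quantile normalization gave 1 and 2, and a total without abundant genes 0 and 2. After sham 1 was called higher and 1 lower. Quantile normalization gave 0 and 4, the other total 0 and 3, a 5 RPKM filter 3 and 1, and limma voom 3 and 1. Over all genes, the filter called 1641 higher and 1468 lower of 6511 after sham, and voom 1708 and 2935 of 11654. With a replicate left out, the median log2 fold change of the 9 ran from 0.02 to 0.23 after banding. After sham it ran from 0.09 to 0.11. In band against sham the count lower in input went to 1 with the other total and with the length trend removed. Over all genes these fits called 207 and 192 lower in input, against 192 in the fit reported. With both libraries of each group kept, the count lower was otherwise 0 in either fraction. Without surgery the count past 2-fold lower was 0 with the length trend removed and 1 otherwise. Tie2 TRAP held 9 of 9 past 2-fold lower throughout; its median log2 ratio ran from -3.24 to -2.69.

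Signs turned as follows for TRAP against input after banding: Ogdh 0.0784 and Fh1 0.00192 with the length trend removed, Suclg1 -0.0546 with quantile normalization, and Mdh2 -0.11 with quantile normalization, -0.15 with the other total and -0.11 with the length trend removed. After sham, Idh3a was at -0.16 with quantile normalization and -0.0396 with the other total, and Idh3b at -0.0277 with quantile normalization. With a replicate left out, TRAP against input after banding ranged from -0.33 to 0.66 for Sucla2, -0.149 to 0.0112 for Fh1 and -0.0155 to 0.0230 for Mdh2. Band against sham in TRAP ranged from -0.117 to 0.0466 for Idh3b, -0.69 to 0.31 for Sucla2 and -0.111 to 0.0489 for Fh1. The interaction ranged from -0.0029 to 0.11 for Cs, -0.0585 to 0.105 for Idh3b, -0.58 to 0.41 for Sucla2 and -0.0616 to 0.0986 for Fh1. Of all recomputed values, 559 kept direction and side of the threshold, 22 gained a call or moved past it, 20 lost one and 20 changed sign; the cause was not tested.

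Whether replicate numbers pair the libraries is not settled. The deviations of same-numbered TRAP and input libraries correlated at 0.0305 in banded hearts and -0.170 in sham hearts. With 1 difference between libraries in each group, these values cannot decide it. Over all pairs of groups, also those of different surgery, they ran from -0.434 to 0.110. With the replicate number as a block, 2 of the 9 were called higher after banding (Idh3b lost its call, adjusted p = 0.0575) and 1 higher and 1 lower after sham. Over all genes, counts moved by more than 1.5 times in band against sham in TRAP, to 573 higher and 1088 lower without the first band TRAP library, 1089 and 882 without the second, and 127 and 80 with no filter, against 257 and 182. The interaction called 11 higher and 186 lower without the first and 18 and 60 without the second, against 0 and 0. Where a replicate was left out, the lone library of its group is assumed to vary like the other groups.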
